A study of Mus musculus with 45 samples.

Results

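The genes described here encode the subunits of the proteasome and the proteins that regulate or assemble it, 44 genes of the 13232 that the arrays measured with a probe set of a single gene symbol. They were chosen by symbol (Psma to Psmg followed by a digit), and where several probe sets measured a gene the one brightest on average across the 45 arrays was taken. The rule found 46 genes and 94 probe sets. Psmc3ip and Psme3ip1 met it by spelling only, since they encode proteins named for an interaction with a subunit, and their values are given apart. Psmb8 and Psme2 were not analysed here, the latter because its probe set carries several symbols.

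RNA came from NIH-3T3, a fibroblast line from mouse embryos, at passages 5 to 15, plated at 40% density 24 h earlier and at about 80% at the start. Total RNA was taken before treatment and after 1 h and 2 h of actinomycin D, which blocks transcription, at 5 µg/ml. Newly transcribed RNA was separated by its 4-thiouridine label, a uridine analogue that cells build into new RNA, after 15 min and 30 min with 500 µM of the label and after 60 min with 200 µM. The unseparated total RNA of 30 min and 60 min cultures was measured too, as was the unlabelled, pre-existing RNA of 60 min. A second 60 min experiment is marked 2F, which the labels do not explain. They do not explain the word mock in some titles either. The 30 min fractions, new and total, have 9 arrays apiece and every other group 3. No label says that arrays of a group came from separate cultures, so p-values measure the spread between these samples, which may be technical.

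The proteasome is the protease that degrades proteins tagged with ubiquitin. Its core is a barrel of stacked rings, in which the outer rings are built of Psma subunits and the inner rings, which hold the protease sites, of Psmb subunits. A regulatory particle caps the core: its base holds the Psmc ATPases, which unfold substrates, and its lid of Psmd subunits removes the ubiquitin chain. Other activators (Psme), an inhibitor (Psmf1) and assembly chaperones (Psmg for the core, some Psmd for the base) bind as well. The subunits are made in nearly all cells and are known to be regulated together.

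Before the results, the arrays themselves need a description. The fibroblast marker list was measured in full, with 10 of 10 genes at or above an intensity of 32 in untreated cells, while 0 of 2 measured epithelial, 0 of 1 leukocyte, 0 of 2 endothelial and 0 of 2 muscle markers reached it. At 30 min the arrays fell into 3 sets that the labels do not name: replicates 1, 4 and 7, replicates 2, 5 and 8, and replicates 3, 6 and 9. The standard deviation of the log2 difference between a pair of total RNA arrays was 0.19 to 0.32 within a set and 0.50 to 0.80 between sets. In newly transcribed RNA it was 0.24 to 0.48 within and 0.34 to 0.87 between sets. The 9 arrays of a fraction may therefore not be 9 independent samples, and results at 30 min are also given with each set averaged to 1 value. The median correlation of an array to its group was 0.904 to 0.947 for total RNA at 60 min and 0.861 to 0.922 for newly transcribed RNA at 60 min, against 0.980 to 0.996 in the other groups of 3. At 30 min it was 0.946 to 0.969 for total RNA and 0.920 to 0.985 for newly transcribed RNA, where replicates 1, 4 and 7 were lowest, at 0.939, 0.920 and 0.939.

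The promoters of the members that the results turn on are shown first: Psmg1 and Psmd8, with the lowest ratios of newly transcribed to total RNA at 30 min, the catalytic subunit Psmb5, Psmd14, whose ratio was close to even, and Psmg3, the single member called after actinomycin D. Each line gives the 250 bases before the transcription start from RefSeq (GRCm38.p6), 5′ to 3′ on the gene's strand, with capitals where any of 8 searched patterns matched on either strand.
Psmg1, chr16:95990961-95991210, minus strand: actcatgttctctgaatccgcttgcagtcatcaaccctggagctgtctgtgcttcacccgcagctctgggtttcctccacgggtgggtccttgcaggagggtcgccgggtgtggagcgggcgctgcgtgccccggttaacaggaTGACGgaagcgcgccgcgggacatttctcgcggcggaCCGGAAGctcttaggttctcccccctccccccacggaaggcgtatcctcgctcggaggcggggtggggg
Psmd8, chr7:29180674-29180923, minus strand: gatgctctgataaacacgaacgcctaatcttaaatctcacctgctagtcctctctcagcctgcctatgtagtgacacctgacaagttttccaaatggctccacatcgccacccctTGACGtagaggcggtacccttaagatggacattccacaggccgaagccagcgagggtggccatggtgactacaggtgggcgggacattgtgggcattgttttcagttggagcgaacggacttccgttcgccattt
Psmb5, chr14:54617996-54618245, minus strand: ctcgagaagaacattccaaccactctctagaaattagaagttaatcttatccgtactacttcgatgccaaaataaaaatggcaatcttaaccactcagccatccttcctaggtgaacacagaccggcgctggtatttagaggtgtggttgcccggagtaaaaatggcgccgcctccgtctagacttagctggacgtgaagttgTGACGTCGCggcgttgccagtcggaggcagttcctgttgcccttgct
Psmd14, chr2:61711444-61711693, plus strand: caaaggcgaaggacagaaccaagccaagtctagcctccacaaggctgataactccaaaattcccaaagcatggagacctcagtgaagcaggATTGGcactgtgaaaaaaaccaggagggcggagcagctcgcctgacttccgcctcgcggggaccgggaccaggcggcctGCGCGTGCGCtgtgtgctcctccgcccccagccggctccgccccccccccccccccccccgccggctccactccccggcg
Psmg3, chr5:139826895-139827144, minus strand: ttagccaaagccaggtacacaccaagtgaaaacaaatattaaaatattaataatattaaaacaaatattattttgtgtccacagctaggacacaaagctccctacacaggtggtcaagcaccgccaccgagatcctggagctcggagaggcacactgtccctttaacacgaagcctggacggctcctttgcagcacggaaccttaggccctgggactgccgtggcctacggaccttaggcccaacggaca
The table of promoters held 39 of the 46 genes, in 42 promoters. The share with a match, in the members' promoters and then in all 32851 promoters of the same length, was 33.3% and 6.91% for CCGGAAG (the core of ETS factor sites) and 35.7% and 17.8% for TGACG (part of a CREB site). It was 14.3% and 4.05% for NRF1-type sites (nuclear respiratory factor, not Nfe2l1), and 11.9% and 6.02% for CACGTG (an E-box). It was 11.9% and 10.2% for TGACNNNGC (the antioxidant response element core), 35.7% and 33.8% for CCAAT, 7.14% and 12.4% for TATAAA, and 2.38% and 4.46% for TGACTCA (an AP-1 site). In Psmb5 the TGACG match lies within the TGACNNNGC match. None of the 8 patterns is in the window of Psmg3. All promoters include those of genes silent in these cells, no test was made, and a match is a description of letters only.

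Newly transcribed against total RNA asks which transcripts hold much new RNA for their amount. A transcript that is replaced slowly has a low ratio. At 30 min, 30 of 44 measured members were lower in newly transcribed RNA and 0 higher (limma, at an adjusted p under 0.05 by Benjamini-Hochberg and at least a 2-fold difference). Of all probe sets tested, 25.6% were called lower and 23.7% higher. These shares count every probe set, while the members have 1 each. Of 8226 genes with 1 probe set each, 2391 were called lower and 1187 higher. The median log2 ratio of the members was -1.34, against -0.14 for all probe sets and -0.33 for all genes with 1 probe set each. Without Psmc3ip and Psme3ip1, 30 of 42 were lower, with a median of -1.36. All 44 ratios were below 0, and 34 members had every newly transcribed array below every total array, as had 28.5% of all probe sets. A ratio on normalised arrays is relative to the other transcripts. With arrays centred on their median 36 members were called lower, the members' median was -1.64 and that of all probe sets -0.44. With the sets averaged, 29 of the 44 were called. Within the sets, 42 of 44 were lower in all 3, as were 43.4% of all probe sets, and 20 by 2-fold or more in all 3, against 17.1%. Psmb9 and Psmg4 were below the filter on low values (a mean log2 of 5, an intensity of 32) in this comparison. Psmb10 passed it through total RNA alone, and 29 of the other 43 members were called.

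The protease core had the most called members. Of its 15 measured genes 13 were lower at 30 min, with a median of -1.45. The inner-ring subunits gave 7 of 8 called with a median of -1.93, and the outer-ring subunits 6 of 7 with -1.37. The counts and medians of the core and its inner rings include Psmb10, a called gene that passed the filter through total RNA alone. Psmb1, an inner-ring subunit without a protease site, had the lowest core ratio. Its intensity was 2684, 3121 and 3742 (lowest, median and highest of 9 arrays) in total RNA and 556, 650 and 954 in newly transcribed RNA. The groups were far apart, and the log2 ratio was -2.26 ± 0.10 (SE; adjusted p = 1.0e-13, limma). Psmb4, another subunit of the inner rings, was the least lowered of the core at -0.70 ± 0.08 and did not reach 2-fold. Its total RNA arrays ran from 3509 to 4492 with a median of 3656, and the newly transcribed ones from 2001 to 2818 with a median of 2406, so that these groups did not overlap either.

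The catalytic subunits were all called at 30 min. Psmb5, which carries the chymotrypsin-like site, had total RNA intensities of 1055, 1370 and 1669 (lowest, median and highest) and newly transcribed ones of 257, 318 and 731. Its log2 ratio was -1.75 ± 0.20 (adjusted p = 1.1e-07, limma). Psmb6, with the caspase-like site, was at -1.44 ± 0.16, and Psmb7, with the trypsin-like site, at -2.10 ± 0.18. Their newly transcribed RNA differed by set. In the sets of replicates 1, 2 and 3 its mean intensity was 682, 290 and 329 for Psmb5. It was 911, 484 and 480 for Psmb6 and 731, 341 and 423 for Psmb7. Psmb10, the interferon-inducible form that takes the place of Psmb7, was at -2.11 ± 0.16, with newly transcribed intensities of 12.2 to 24.4, below the intensity that the filter stands for, so that the size of its ratio is uncertain. Psmb9, which takes the place of Psmb6, was near the bottom of the scale in all groups, from 5.55 to 30.6. In the outer rings Psma4 was lowest at -2.01 ± 0.14 and Psma3 highest at -0.92 ± 0.09. Psma3 intensities were 4710, 5132 and 5561 in total RNA and 2234, 2875 and 3212 in newly transcribed RNA, again without overlap. Another probe set of Psma3, however, was called higher at 30 min, 60 min and in 2F (3.94, 3.05 and 4.05). For Psma6 another probe set was called higher at 30 min (3.19) and in 2F (2.10).

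The ATPases spread more widely. At 30 min 3 of 6 were lower, with a median of -1.03. Psmc3 was lowest at -2.00 ± 0.09, with intensities of 1214, 1432 and 1648 in total RNA and 313, 351 and 427 in newly transcribed RNA. Psmc5 (-1.36 ± 0.15) and Psmc4 (-1.19 ± 0.11) were called as well. Psmc6 was at -0.40 ± 0.17, and its newly transcribed arrays (972, 1819 and 2076) overlapped those of total RNA (1819, 1878 and 2538).

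In the lid 4 of 8 subunits were lower, with a median of -0.97, and in the base 3 of 3, with -1.42. Psmd8 had total RNA intensities of 834, 1227 and 1507 and newly transcribed ones of 177, 226 and 338, and a log2 ratio of -2.33 ± 0.15. Psmd13 was close to it at -2.29 ± 0.12. At the other end Psmd14, the enzyme that cuts off the ubiquitin chain, had 633, 772 and 872 in total RNA and 526, 553 and 661 in newly transcribed RNA. These ranges overlapped, and the ratio was -0.40 ± 0.08. Psmd6 had the ratio nearest to even among all 44 members, -0.28 ± 0.09, with total RNA at 2408, 2774 and 3342 and newly transcribed RNA at 1953, 2393 and 2704. Of the base subunits, the ubiquitin receptor Psmd4 was at -1.77 ± 0.13. Psmd1 (-1.42 ± 0.07) and Psmd2 (-1.23 ± 0.17) are the large scaffold subunits. Of the base assembly chaperones Psmd9 (-2.15 ± 0.18) and Psmd10 (-1.71 ± 0.12) were called and Psmd5 (-0.72 ± 0.13) was not.

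Among the regulators 5 of 7 were lower at 30 min, with a median of -1.47. Psmg1, a core assembly chaperone, had the lowest ratio of all members: total RNA at 280, 306 and 352, newly transcribed RNA at 28.9, 57.4 and 59.9, and a log2 ratio of -2.60 ± 0.12, or 6.08-fold lower. It lay at percentile 2.71 of the 8226 genes tested with 1 probe set each. Its partner Psmg2 was at -1.30 ± 0.15. Psme1, an activator subunit that caps the core, was at -2.26 ± 0.17, and the inhibitor Psmf1 at -1.47 ± 0.13. Psme4, a large single-chain activator, was at -0.50 ± 0.17 and was not called. Psme3, a nuclear activator, was called at -1.54 ± 0.41 but not with averaged sets, at the same estimate. Its total RNA differed by set, with mean intensities of 435, 133 and 668 in the sets of replicates 1, 2 and 3. A second probe set of Psme3 was called lower at 30 min too (-2.10).

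Psmg3, another core assembly chaperone, also differed by set. Newly transcribed RNA had a mean intensity of 202 in the set of replicate 1 and of 87.5 and 82.5 in the sets of replicates 2 and 3. Total RNA was at 146, 166 and 153. The ratio was thus 0.47 in the set of replicate 1 and -0.93 and -0.89 in the others, and over all arrays -0.45 ± 0.22 (adjusted p = 0.062, limma). The 2 genes that met the rule by spelling, Psme3ip1 (-0.95 ± 0.07) and Psmc3ip (-0.81 ± 0.18), were not called.

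**Figure D1:**
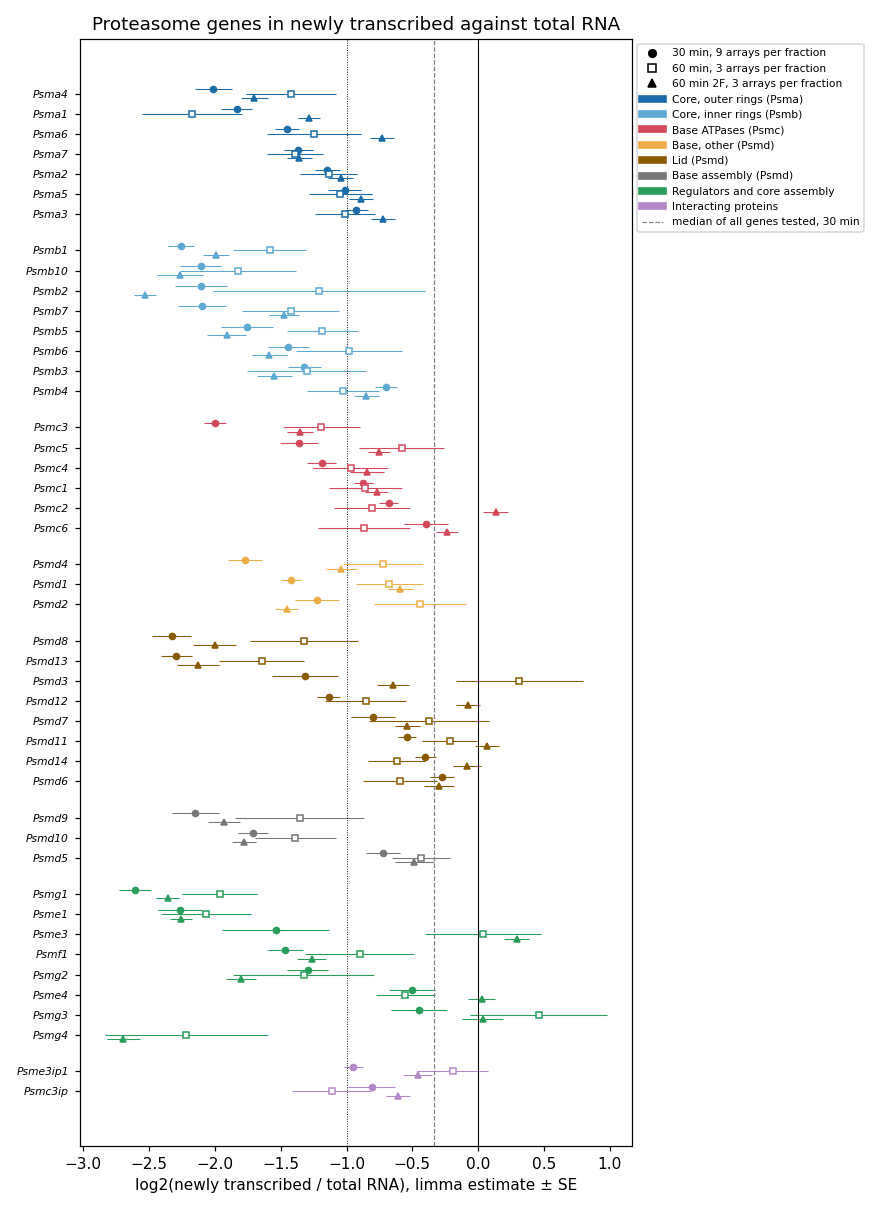
Log2 ratio of newly transcribed to total RNA (limma estimate ± SE, horizontal axis) for each measured gene, grouped and coloured by its place in the complex, in the experiments at 30 min (circles), 60 min (open squares) and 60 min 2F (triangles). The dotted line marks a 2-fold lower level and the dashed line the median of all genes at 30 min (-0.33). All 44 circles lie left of 0, from Psmg1 at -2.60 to Psmd6 at -0.28.

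The other experiments, which share no arrays with the first, gave a similar order of members. At 60 min 22 of 45 members were lower and 0 higher, against 21.8% of all probe sets called lower and 17.7% higher, with a median of -1.03. In the 2F experiment 23 of 45 were lower and 0 higher, with a median of -1.04. Of all probe sets 21.8% were called lower there and 24% higher. Of 8294 genes with 1 probe set each, 2039 were called lower and 1295 higher at 60 min. In 2F 1883 of 8355 such genes were called lower and 1574 higher. Without Psmc3ip and Psme3ip1, 21 of 43 members were lower at 60 min and 23 of 43 in 2F. Psmc3ip was called lower at 60 min (-1.11, adjusted p = 0.013, limma). The core gave 13 of 15 at 60 min and 11 of 15 in 2F, while lid and base subunits gave 2 of 11 and 4 of 11. In both experiments Psmb10, which these core counts include, and Psmg4 passed the filter through total RNA alone, and both were called. Of the other 43 members 20 were called at 60 min and 21 in 2F. Across the 44 members the Spearman correlation with the 30 min ratios was 0.71 at 60 min and 0.82 in 2F, and across all genes 0.79 and 0.93. Genes are not independent replicates, and the experiments share probe sets and normalisation.

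In all 3 experiments 16 of the 44 members were lower (36.4%), against 13.6% of the 14763 probe sets tested in all of them. They were Psma1, Psma2, Psma4, Psma7, Psmb1, Psmb3, Psmb5, Psmb7, Psmb10, Psmc3, Psmd8, Psmd9, Psmd10, Psmd13, Psme1 and Psmg1, of which 15, all but Psmb10, had mean intensities of at least 32 in newly transcribed RNA in each experiment. Called in none were Psmc1, Psmc2, Psmc6, Psmd5, Psmd6, Psmd7, Psmd11, Psmd14, Psme4, Psmg3 and Psme3ip1, 11 genes. These hold 3 of the 6 ATPases and no core subunit. Both lists hold for the probe sets used. Among the genes lower in all 3, another probe set of Psmd9 was called higher in each experiment (3.69, 2.43 and 2.56). Another of Psma1 was called higher at 30 min (3.93) and in 2F (2.18). For Psma7, Psmb3 and Psmd13 the 2 tested probe sets were called lower in all 3. Among the genes called in none, probe sets differed too. Of the 3 probe sets of Psme4, 2 were called lower at 60 min and 1 at 30 min. For Psmc6 1 of 3 was called lower at 60 min (-1.54). Another probe set was called higher at 30 min, 60 min and in 2F for Psmg3 (3.00, 1.87 and 2.25) and Psmd7 (3.60, 2.85 and 2.48). The same held for Psmd11 (1.25, 1.48 and 1.18), which also had 1 probe set called lower at 30 min (-1.16).

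Among members with newly transcribed RNA at or above an intensity of 32, the largest differences at 60 min were those of Psma1 (-2.17 ± 0.38) and Psme1 (-2.07 ± 0.34). Psmg4, a core assembly chaperone, was called too (-2.22 ± 0.62, adjusted p = 0.015, limma), but its newly transcribed RNA lay below that intensity on every array, so the size of its ratio is uncertain and it is not ranked. It was measured at 95.3, 18.1 and 71.0 in total RNA and at 22.6, 7.12 and 7.54 in newly transcribed RNA, so that replicate 2 of total RNA lay within the newly transcribed range. That array was low for other members too: Psmb2 was at 334, 29.3 and 316 in total RNA. The call of Psmg4 was lost without replicate 1 or 3 of total RNA or replicate 2 or 3 of newly transcribed RNA. Without replicate 2 of total RNA, 23 members were called. In 2F the largest differences by the same criterion were those of Psmb2 (-2.53 ± 0.09) and Psmg1 (-2.36 ± 0.09), and the arrays were closer together. Psmg4 was called at -2.69 ± 0.13, again with newly transcribed RNA below the filter intensity (a mean of 14.6 against 94.7 in total RNA), and it fell below the filter when any total RNA array was left out. Psmg1 was at 347, 330 and 366 in total RNA and at 68.2, 65.5 and 69.4 in newly transcribed RNA.

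Of the catalytic subunits at 60 min, Psmb5 was at -1.18 ± 0.27 (-0.92 and not called without replicate 1 of total RNA), Psmb7 at -1.43 ± 0.37 and Psmb10 at -1.82 ± 0.44, all called, and Psmb6 at -0.98 ± 0.40, not called. In 2F Psmb5 was at -1.91 ± 0.15, Psmb6 at -1.59 ± 0.13, Psmb7 at -1.47 ± 0.11 and Psmb10 at -2.27 ± 0.18, all called. The newly transcribed mean of Psmb10 was 15.0 at 60 min and 16.6 in 2F, below the filter intensity, and in 2F it was not tested when any total RNA array was left out. Psmd4 was at -0.72 ± 0.30 at 60 min and was called in 2F at -1.04 ± 0.12, though not without replicate 1 (-0.95) or 2 (-0.999) of newly transcribed RNA. Its second probe set was called lower at 60 min (-2.10) and in 2F (-1.81). Psmd14 was at -0.62 ± 0.22 and -0.08 ± 0.11. In 2F its newly transcribed arrays (796, 653 and 785) overlapped its total arrays (739, 795 and 824).

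The regulators split in the same 2 experiments. Psme1 (-2.07 ± 0.34 and -2.26 ± 0.08) and Psmg1 (-1.96 ± 0.29 and -2.36 ± 0.09) were called in both. Psmg2 (-1.33 ± 0.54 and -1.80 ± 0.11) and Psmf1 (-0.90 ± 0.42 and -1.26 ± 0.11) were called in 2F and not at 60 min, and the difference between these experiments did not pass the test for any member. At 60 min both were called without replicate 2 of total RNA, at -1.95 and -1.39, and Psmg2 also without replicate 2 of newly transcribed RNA (-1.67). Without replicate 1 of total RNA they were at -0.91 and -0.52. A second probe set of Psmg2 was called lower at 60 min. Psme4 was at -0.55 ± 0.22 and 0.03 ± 0.10, Psmg3 at 0.46 ± 0.52 and 0.03 ± 0.15, and Psme3 at 0.04 ± 0.44 and 0.29 ± 0.10. None of them was called with the probe set used, but other probe sets were. At 60 min the second of Psme3 (-1.31) and 2 of the 3 of Psme4 were called lower. The second of Psmg3 was called higher at 60 min (1.87) and in 2F (2.25). Psmg3 in newly transcribed RNA at 60 min was at 390 on replicate 1 and at 114 and 75.7 on the others, and without replicate 1 its log2 ratio was -0.23.

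**Figure D2:**
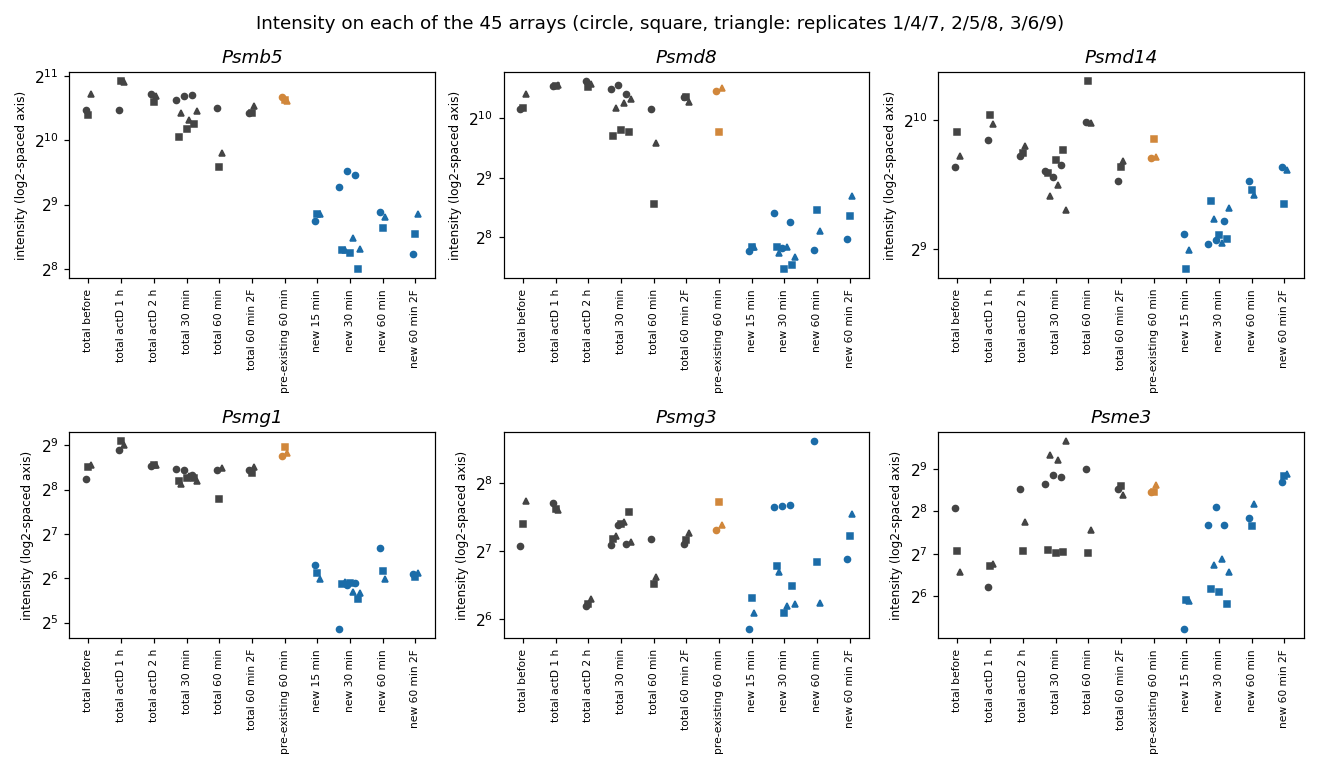
Intensity on each of the 45 arrays (vertical log2-spaced axis) by group (horizontal axis) for 6 genes, in total RNA (grey), pre-existing RNA (orange) and newly transcribed RNA (blue), with symbols for replicates 1, 4 and 7 (circles), 2, 5 and 8 (squares) and 3, 6 and 9 (triangles). Psmb5, Psmd8 and Psmg1 separate the fractions at 30 min and Psmd14 does not. Psme3 and Psmg3 differ between the sets of arrays, as does Psmb5 in newly transcribed RNA.

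The ratio was compared between the experiments by an interaction term. Label time and label dose changed together between the 30 min and 60 min experiments, so they cannot be told apart. Against 30 min, Psmd3 (1.63 ± 0.52, adjusted p = 0.019, limma), Psmd4 (1.05 ± 0.28, 0.0070) and Psmd8 (1.01 ± 0.35, 0.031) had a higher ratio at 60 min. These were 3 of 44 members against 10.3% of all probe sets, and 0 members had a lower one, against 11.8%. Of 8212 genes with 1 probe set each, 992 were called higher and 513 lower. A second probe set of Psmd4 was at -2.39 at 30 min and -2.10 at 60 min, called lower at both. Psmd12, a lid subunit, had a higher ratio in 2F (1.06 ± 0.23, adjusted p = 0.0077, limma), 1 of 44 against 1.62%, and 0 had a lower one, against 2.19%. Of the 8212 genes 162 were called higher in 2F and 40 lower. With averaged sets none of Psmd3, Psmd4, Psmd8 and Psmd12 was called. At 60 min the count of members with a higher ratio was 0 without replicate 2 of total RNA, against 4.47% of all probe sets, and 7 without replicate 1, against 16.5%. Psmd12 was at 1150, 1268 and 1367 in total RNA and 489, 549 and 738 in newly transcribed RNA at 30 min, and in 2F at 1260, 1362 and 1450 against 1256, 1279 and 1325. The fractions did not overlap at 30 min and overlapped in 2F. Between 2F and 60 min 0 of 44 differed, against 0.294% of all probe sets called higher and 0.0876% lower.

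The median over the 44 proteasome genes, taken on each array relative to the median of all probe sets, gives the same picture by array. In log2 units it was 2.96 ± 0.06 (SD, n = 3) in untreated cells, 2.79 ± 0.20 (n = 9) in total RNA at 30 min and 1.36 ± 0.21 (n = 9) in newly transcribed RNA at 30 min. At 60 min it was 2.72 ± 0.40 in total RNA, 1.76 ± 0.04 in newly transcribed RNA and 2.97 ± 0.06 in pre-existing RNA (n = 3 each). The highest newly transcribed array of any group, at 1.82, lay below the lowest total RNA array, at 2.26.

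**Figure D3:**
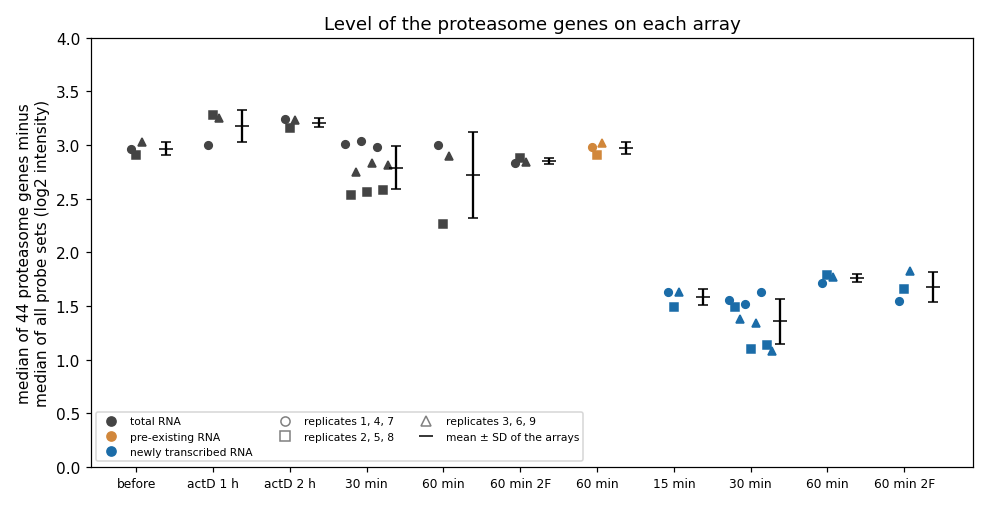
Median log2 intensity of the 44 proteasome genes minus the median of all probe sets (vertical axis) on each array, by group (horizontal axis), for total RNA (grey), pre-existing RNA (orange) and newly transcribed RNA (blue); bars are the mean ± SD of the arrays of a group. No newly transcribed array exceeds 1.82 and no total RNA array falls below 2.26.

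Actinomycin D asks which transcripts are lost when none are made. On normalised arrays a change is again relative to the other transcripts, so an increase need not be a gain of RNA. After 1 h 0 of 45 members were called, against 3.58% of all probe sets called lower and 2.57% higher (limma). Of 8151 genes with 1 probe set each, 324 were called lower and 57 higher. Another probe set of Psmd11 was called lower after 1 h (-1.19), while the one used was at 0.02. The members' median log2 change was 0.25, against 0.09 for all probe sets and 0.03 for all genes. At an adjusted p below 0.05 without a fold limit 13 of 45 were higher and 0 lower, against 21.9% and 14.4% of all probe sets. Without Psmc3ip and Psme3ip1, 12 of 43 were higher. Among the 13 were the base chaperone Psmd10 (0.89 ± 0.15, adjusted p = 0.0027) and Psmg4 (0.83 ± 0.19, adjusted p = 0.010), which was called without replicate 3 of untreated cells (1.02). After 2 h 1 of 45 was called, against 9.42% of all probe sets called lower and 0.538% higher. The members' median was 0.17, against 0.10 for all probe sets. Of the 8151 genes 888 were called lower at 2 h and 24 higher. The transcription factor Myc, whose RNA is short-lived, was at -3.16 after 1 h and -5.38 after 2 h, and Actb at -0.10 at both times.

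The called member was Psmg3. It was at 134, 169 and 212 in untreated cells, at 209, 197 and 195 after 1 h and at 73.1, 75.0 and 78.8 after 2 h. The arrays at 2 h lay below all others, and the change was -1.16 ± 0.15 (adjusted p = 0.00031, limma). Without replicate 3 of untreated cells it was -0.99 and the call was lost, and with arrays centred on their median it was -0.82, where the median of all probe sets moved from 0.10 to 0.43. A second probe set of this gene had a ratio of newly transcribed to total RNA of 3.00 at 30 min, far from the -0.45 of the one used.

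Of the other members with a fixed place, Psmb5 was at 0.23 ± 0.14 after 1 h and 0.14 ± 0.14 after 2 h, Psmb6 at 0.41 ± 0.11 and 0.27 ± 0.11, and Psmb7 at -0.35 ± 0.34 and 0.22 ± 0.34. Psmb7 was at 701 on replicate 1 at 1 h and at 1904 and 2006 on the others. Psmb10 had the largest increase at 2 h, 0.86 ± 0.15 (adjusted p = 0.0019, limma), from 59.3, 86.6 and 78.0 to 130, 153 and 122, without overlap but short of 2-fold. Quantile normalisation put it at 1.01 and median centring at 1.20, and it was called under both. Psmd14 was at 0.20 ± 0.11 and 0.00 ± 0.11, and Psmd4 at 0.25 ± 0.10 and 0.22 ± 0.10. The base chaperone Psmd5 was at 0.22 ± 0.10 and -0.43 ± 0.10 (adjusted p = 0.0087 at 2 h, limma).

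Of the regulators, Psme1 was at -0.20 ± 0.12 and 0.34 ± 0.12, Psme4 at 0.00 ± 0.13 and -0.21 ± 0.13, and Psmf1 at 0.25 ± 0.14 and 0.48 ± 0.14. Psme3 was at -0.67 ± 0.41 and 0.55 ± 0.41, and these values depended on single arrays: without replicate 1 of untreated cells they were -0.25 and 0.97, without replicate 3 of untreated cells -0.9996 and 0.21, and the later one was 0.18 without replicate 1 at 2 h and 0.90 without replicate 2. Its second probe set was at 0.36 after 1 h and 0.30 after 2 h. The assembly chaperones Psmg1 (0.56 ± 0.11 and 0.11 ± 0.11), Psmg2 (0.25 ± 0.14 and -0.01 ± 0.14) and Psmg4 (0.83 ± 0.19 and 0.63 ± 0.19) were not called. Across the 44 members measured in both, the ratio at 30 min and the change after 2 h of actinomycin D had a Spearman correlation of -0.75 (-0.67 across all genes). The arrays of these comparisons are separate, and the probe sets are the same.

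**Figure D4:**
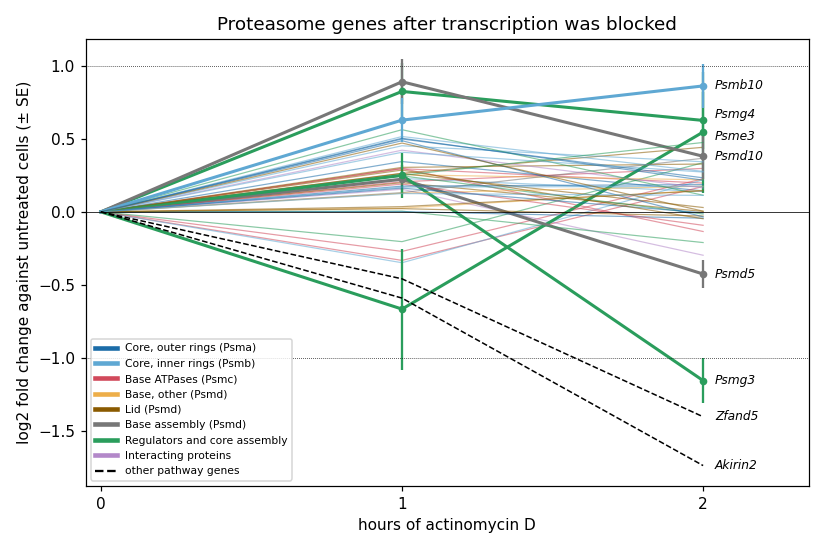
Log2 fold change against untreated cells (vertical axis, limma) over hours of actinomycin D (horizontal axis), 1 line per measured gene, coloured by its place in the complex, with named genes drawn thicker with their SE and 2 other genes of the pathway dashed. Dotted lines mark 2-fold. Psmg3 is the only proteasome line below -1 at 2 h, at -1.16, and Akirin2 and Zfand5 lie at -1.74 and -1.40.

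Other genes of the pathway showed a wider range. Of 33 listed, 24 had a probe set. At 30 min 8 of 24 were lower in newly transcribed RNA, against 25.6% of all probe sets, and 3 higher, against 23.7%. The lower ones included Pomp, the core maturation factor (-1.30 ± 0.10), Sem1, a small lid subunit (-1.25 ± 0.12), and the deubiquitinases Uchl5 (-1.56 ± 0.19) and Usp14 (-1.06 ± 0.10), which bind the regulatory particle. The others were Ecpas, Rad23b, Stub1 and Ube3c. The higher ones were Zfand5 (1.53 ± 0.08), Zfand2a (1.21 ± 0.16) and the stress-response factor Nfe2l2 (1.03 ± 0.10). At 60 min 3 of 24 were lower and 3 higher, against 21.8% and 17.7% of all probe sets, and in 2F 2 and 3, against 21.8% and 24%. Zfand5, Zfand2a and Nfe2l2 were higher in all 3 experiments, and Sem1 and Uchl5 lower. After 2 h of actinomycin D Akirin2, which carries proteasomes into the nucleus (-1.74 ± 0.09), Zfand5 (-1.40 ± 0.14) and Nfe2l2 (-1.10 ± 0.22) fell, 3 of 24 against 9.42% of all probe sets. After 1 h Ubqln4, a ubiquitin-binding shuttle, fell by 1.08 on the log2 scale, 1 of 24 against 3.58%, and at 2 h it was at 0.11.

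The remaining comparisons moved few members. Pre-existing against total RNA at 60 min gave 0 of 45 calls, against 6.96% of all probe sets called lower and 1.87% higher. Of 8294 genes with 1 probe set each, 233 were called lower and 155 higher. The members' median was 0.30. It was 0.12 without replicate 2 of total RNA and 0.45 without replicate 1. A fit over all 45 arrays called 4 members higher, against 9.99% of all probe sets, and leaving out replicate 1 of total RNA called 6, against 8.59%. Newly transcribed RNA at 15 min against 30 min gave Psma4 higher (1.12 ± 0.23, adjusted p = 0.0011, limma), 1 of 43 against 9.5%. It gave Psme3 lower (-1.18 ± 0.39), 1 of 43 against 7.59%. Of 7859 genes with 1 probe set each, 141 were called higher and 718 lower. Without replicate 3 at 15 min neither Psma4 nor Psme3 was called, and Psme3 was also lost without replicate 1. At 60 min against 30 min, where the label dose differed as well as the time, Psmd4 (1.11 ± 0.23), Psmd3 (1.06 ± 0.34) and Psme3 (1.03 ± 0.39) were higher. These were 3 of 43 against 5.23%. Of the members 0 were lower, against 12.1%. Of the 7859 genes 485 were called higher and 434 lower. The count of higher members was 1 with averaged sets or with the replicate number as a block. Without replicate 1 at 60 min Psmd3 was at 0.54 and Psmd4 at 0.80, and Psme3 lost its call without any one of the 60 min arrays.

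Total RNA of labelled cells was compared with untreated cells. At 30 min 0 of 45 members were called, against 0.544% of all probe sets called higher and 0.181% lower, and in 2F 0 of 45, against 1.36% higher and 0.498% lower. At 60 min Psmb2 (-2.48 ± 0.63) and Psmg2 (-1.30 ± 0.41) were lower, 2 of 45 against 4.98%, and 0 higher, against 3.49%. Psmb2 was at 528, 768 and 1332 in untreated cells and at 334, 29.3 and 316 at 60 min. Without replicate 2 of total RNA at 60 min Psmb2 was at -1.32 and called, and Psmg2 at -0.67 and not called. Psmg2 also lost its call without any one of the untreated arrays, and Psmb2 without replicate 3 of them (-2.13). The count was 1 without replicate 2 of total RNA at 60 min, against 2.03% of all probe sets, 7 without replicate 1, against 13.2%, and 0 without replicate 3 of untreated cells, against 2.44%.

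Other probe sets of the same gene did not always share the direction. At 30 min 22 genes had more than 1 measured probe set, and for 7 of them the ratios had opposite signs, with opposite calls for 4. At 60 min signs were opposite for 6 of 21 genes and calls for 2, and in 2F for 10 of 22 and 2. Some but not all probe sets of a gene were called for 9 of 22 genes at 30 min, 11 of 21 at 60 min and 10 of 22 in 2F. Psma1 was at -1.83 with the probe set used and at 3.93 with another, and Psmd9 at -2.15 and 3.69. Averaging the probe sets of a gene gave 3 members higher at 30 min and 2 each at 60 min and in 2F. Which transcripts the probe sets detect was not tested.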

How the data were processed

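The authors deposited linear intensity values of 31451 probe sets on 45 arrays, which the submitters' processing notes say came from GCRMA; its version is not given in the sources used here. RNA was extracted with Trizol and labelled by the one-cycle protocol, per the labels. Log2 of the deposited intensity was taken here, 61 control probe sets were left out, and limma 3.58.1 (R 4.3.3) was run on 14 comparisons where the mean log2 of a probe set reached 5. A call needed a 2-fold difference and a p under 0.05 after Benjamini-Hochberg adjustment across the whole table tested. Arrays carry no depth; their number limits the precision.

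Named genes were every called member where 6 or fewer were called, otherwise the 3 largest changes each way, plus catalytic subunits and regulators, and the extremes of each class. Members and lists were chosen with earlier results of these data known. The 8 promoter patterns were chosen by hand, all are reported, and 2 were widened (the other strand of TATAAA, a further NRF1 form) after a first look at the shares. All 46 genes matched RefSeq by Entrez identifier. Fits were tested on simulated data.

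Same-numbered arrays deviated together (every correlation above 0.1) in both actinomycin D comparisons, both 60 min fractions against their total RNA, the new RNA of 60 min against that of 30 min, and total RNA at 60 min against untreated cells; the pairing comes from the data and the numbers in the labels.

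A planned conversion to half-lives is not used: its line across 9047 probe sets had r = -0.088.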

Additional observations from a re-analysis of the deposited data

Results flagged for a closer look

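In newly transcribed RNA at 30 min, 9 of the 92 groups of 9 arrays tested (46 genes in each fraction) had 1 array apart from the rest, and chance flags about 1 in 20 groups. The low arrays were replicate 4 for Psma1 (507, next 658), Psmd7 (222, next 346) and Psme3ip1 (104, next 118), replicate 5 for Psmc1 (479, next 562), and replicate 1 for Psmc3ip (64.2, next 97.0) and Psmg1 (28.9, next 46.1). The high arrays were replicate 7 for Psma7 (910, next 617) and Psmb1 (954, next 707), and replicate 1 for Psmf1 (90.9, next 67.3). Of these 9 values, 8 belong to the set of replicates 1, 4 and 7. Whether the sets are batches was not tested.

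The ratio of newly transcribed to total RNA differed between experiments, by the interaction term, for Psmd3 (1.63), Psmd4 (1.05) and Psmd8 (1.01) at 60 min against 30 min and for Psmd12 (1.06) in 2F against 30 min. None of the 4 was called with the 30 min sets averaged. A second probe set of Psmd4 had ratios of -2.39 at 30 min and -2.10 at 60 min.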

How the results depend on the processing

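The counts of members lower in newly transcribed RNA stayed within 1.5 times at 30 min, 60 min and 2F under the alternatives run, with 28 called at 30 min from replicates 1 to 3 and 16 to 23 at 60 min with 1 array left out. Averaging probe sets gave 3, 2 and 2 members higher at 30 min, 60 min and 2F, and 1 lower in pre-existing RNA. Pre-existing RNA had 1 member higher with no filter, 4 in 1 fit over 45 arrays, 1 without the 2 least alike arrays and 0 to 6 leaving out 1 array. Median centring moved the medians to -1.64 (30 min), -1.22 (2F), 0.51 (actinomycin D 2 h), 0.57 (new RNA 60 min against 30 min) and -0.22 (total RNA 2F); in 2F it was -0.85 with a mean log2 of 7 or more, -0.76 with averaged probe sets and -1.12 to -0.83 leaving out 1 array.

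At 2 h of actinomycin D, median centring gave 0 lower and 1 higher and quantile normalisation 1 higher; leaving out 1 array gave 0 to 1 lower at 2 h and 0 to 1 higher at 1 h. Interaction calls at 60 min against 30 min were 7 with median centring, 0 with replicates 1 to 3 or averaged sets, 1 with the replicate block on averaged sets, and 0 to 7 leaving out 1 array. In 2F against 30 min they were 2 with averaged probe sets, 2 with the replicate block and 0 with replicates 1 to 3, averaged sets or the block on averaged sets; in 2F against 60 min leaving out 1 array gave 0 to 2. For new RNA at 60 min against 30 min, 8 were higher with median centring, and 1 with the replicate block, replicates 1 to 3 or averaged sets; leaving out 1 array gave 0 to 1 lower. At 15 min it gave 0 to 1 in either direction. Total RNA at 60 min had 1 lower with median centring, no filter or averaged probe sets and 0 to 7 leaving out 1 array. The replicate block changed no other count of calls by over 1.5 times (30 lower at 30 min, 22 at 60 min, 23 in 2F).

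Signs turned for small values. Psme4 was at -0.036 (quantile) and -0.10 (averaged probe sets) at 1 h of actinomycin D, 0.12 at 2 h with median centring, 0.30 at 30 min with averaged probe sets and -0.15 in 2F with median centring; leaving out 1 array gave -0.081 to 0.085 at 1 h and -0.045 to 0.090 in 2F. Psmg3 was at -0.12 at 1 h, 1.27 at 30 min with averaged probe sets, -0.15 in 2F with median centring and -0.35 at 60 min without the 2 least alike arrays; leaving out 1 array gave -0.23 to 0.95 at 60 min and -0.13 to 0.20 in 2F. Psme3 at 60 min was at -0.016 with quantile normalisation, -0.017 with median centring, -0.64 with averaged probe sets and -0.36 without the 2 arrays, with -0.38 to 0.61 leaving out 1, and in 2F at -0.15 with averaged probe sets. Psma1 at 60 min was at 0.53 with averaged probe sets. Psmd14 at 2 h was at -0.038 with quantile normalisation, -0.058 to 0.079 leaving out 1 array, and -0.13 to 0.0097 in 2F. Psmg2 at 2 h was at 0.32 with median centring and -0.13 to 0.063 leaving out 1 array; Psmb7 at 1 h at -0.61 to 0.14.

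The half-life conversion gave a member median of 49.8 h, 25.8 h at a mean log2 of 5 or more, 15.8 to 229 h leaving out 1 array and no estimate without replicate 1 of total RNA at 60 min. The cause was not tested for any of these changes. The averaged sets, the block on them and the fit without the 2 least alike arrays were chosen after seeing the data.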
